A study of Mus musculus with 8 samples.

Results

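Large-artery endothelial cells (ECs) were taken from single-cell transcriptomes of breast tumour vessels by a rule on expressed genes. A cell was counted when it had at least 1000 detected genes, a UMI (a unique molecular identifier, the count of 1 captured mRNA molecule) of the pan-endothelial gene Pecam1, a UMI of at least 3 of the 6 genes Gkn3, Col8a1, Sema3g, Alpl, Pcsk5 and Nebl, and UMIs of fewer than 2 of the cycling genes Mki67, Top2a and Birc5. The rule took 637 of 8204 cells, and the 5270 cells that met the other conditions but had fewer than 3 of the 6 markers served as other ECs. The cells came from female mice, as live CD45- CD31+ cells sorted from tumours, and were sequenced with 10x Chromium 3′ chemistry. Tumours were either spontaneous, in mice that carry the MMTV-PyMT transgene (the polyoma middle T oncogene under a mammary tumour virus promoter), or implanted, from MMTV-PyMT tumour cells grown in culture and injected with Matrigel into the mammary fat pad. Each tumour was injected with PBS or with 3'3'-cGAMP, a cyclic dinucleotide that activates the innate immune sensor STING, and was taken 3 h later. There were 2 libraries for each injection in spontaneous tumours and 2 for each in implanted tumours, 4 groups in all. The labels give C57BL/6 and the methods name FVB, so the strain is not settled. The labels call the mice adult, and by the methods spontaneous tumours were treated from 9 weeks of age and tumour cells were implanted at 8 to 9 weeks.

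Large arteries carry blood under high pulsatile pressure, and their wall is built around elastic fibres of elastin on a scaffold of fibrillins, fibulins and latent TGF-beta binding proteins. Arterial ECs are specified by VEGF and Notch signalling, are coupled by the connexins Gja4 and Gja5, and control vessel tone and smooth muscle through nitric oxide and other secreted factors. When STING is activated, cells produce type I interferon, and its receptor switches on a large set of interferon-stimulated genes through STAT and IRF factors. These include chemokines that attract T cells.

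The deposited libraries held 7863535 to 16506086 UMIs. Replicate 1 of implanted cGAMP stood apart, with 2025 cells at a median of 2014 UMIs per cell. The large-artery cells numbered 104 and 46 in spontaneous PBS replicates 1 and 2, 42 and 40 in spontaneous cGAMP, 100 and 157 in implanted PBS and 93 and 55 in implanted cGAMP. They held 488076 to 1868645 UMIs per library, at a median of 7621 to 13136 UMIs per cell, and 0 of their barcodes were shared between libraries.

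All levels below are in CPM, that is UMIs scaled to 1000000 in each cell and averaged over the large-artery cells of a library. The library, not the cell, was the unit of each comparison.

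The 6 genes that chose the cells are given as a description, with no test. Col8a1, a short-chain collagen of the vessel wall that lies at 57624258-57754737 on the minus strand of chromosome 16 (mm10), was detected in 91.5% of the 637 cells. Its level was 342 to 606 CPM over the 8 libraries (median 456), against 11.6 to 41.2 CPM in the other ECs. Sema3g, a secreted semaphorin at 31217860-31230352 on the plus strand of chromosome 14, was detected in 98.3% of the cells. It stood at 678 to 940 CPM (median 820) against 45.9 to 72.5 CPM. These were the markers found in nearly every cell.

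The other 4 markers were found in fewer cells. Nebl, a nebulin-related actin-binding protein (chromosome 2, 17343909-17731464, minus strand), was detected in 67.2% of the cells, and its level was 140 to 325 CPM (median 173) against 1.94 to 5.30 CPM in other ECs. Pcsk5, a proprotein convertase that cleaves secreted precursors (chromosome 19, 17432319-17837632, minus strand), was detected in 62.0%, at 89.2 to 182 CPM (median 130) against 0.347 to 3.43 CPM. Alpl, the tissue-nonspecific alkaline phosphatase (chromosome 4, 137741733-137796384, minus strand), was detected in 42.7%, at 71.9 to 171 CPM (median 129) against 0.213 to 2.60 CPM. Gkn3, a gastrokine family gene (chromosome 6, 87383256-87388935, minus strand), was the least often detected, in 26.7% of the cells, and the most variable, at 50.01 to 408 CPM (median 224) against at most 4.67 CPM in other ECs. The commonest sets of markers were Col8a1, Sema3g, Pcsk5 and Nebl together in 97 cells and Col8a1, Sema3g and Nebl in 94 cells.

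**Figure D1:**
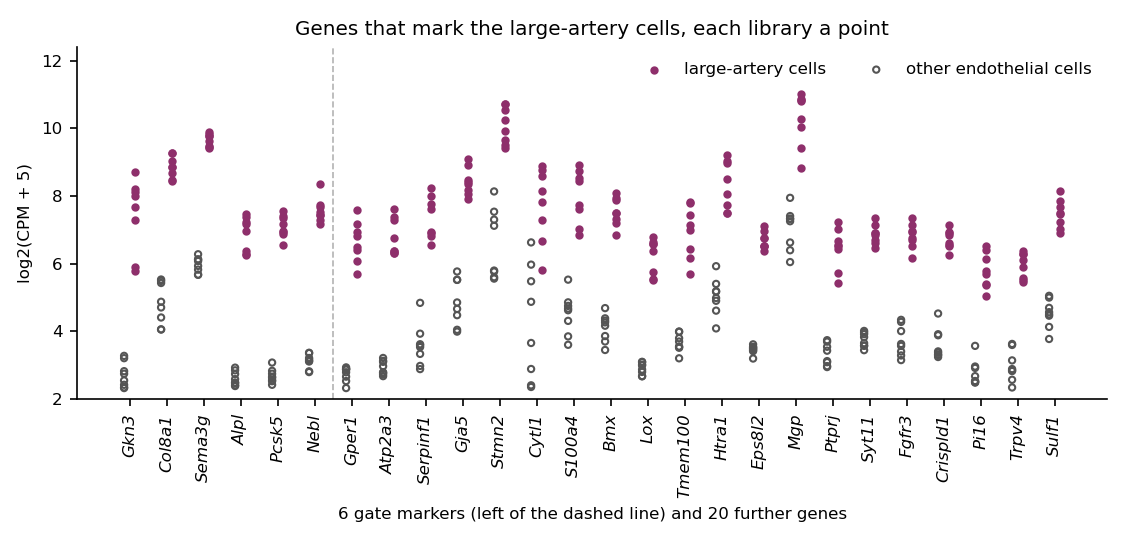
Levels of the 6 genes that chose the cells, in CPM, for each of the 8 libraries, in the large-artery cells and in the other ECs. In each gene the large-artery cells lie above the other ECs in all 8 libraries, which the choice of cells and genes sets. Of the 6 genes that chose the cells Gkn3 spreads most, from 50.01 to 408 CPM.

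Of the 637 cells, 259 had 3 of the markers, 227 had 4, 117 had 5 and 34 had all 6. A further 375 cells lay just outside the threshold with 2 markers. The cells with 2 markers had a median of 13621 UMIs, against 9928 UMIs in the cells with 3 markers. The cells just outside were therefore not shallower than those just inside. With at least 3 markers there were also 16 cycling cells, 7 cells without a Pecam1 UMI and 7 cells under 1000 genes, which were left out.

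The 6 genes were also read one at a time in cells chosen on at least 3 of the other 5. The set of 6 was itself picked with these data known, so this is a description with no test. The left-out gene was higher in the chosen cells than in the other ECs of the same library in 8 of 8 libraries, for each of the 6 genes. The mean difference, on the log2(CPM + 5) scale, was 3.75 for Gkn3, 3.36 for Col8a1, 3.25 for Sema3g, 3.65 for Alpl, 3.71 for Pcsk5 and 3.42 for Nebl. With cells thinned to 4000 UMIs Sema3g was higher in 7 of 8 libraries (lowest difference -0.47), and the other 5 genes in 8 of 8.

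Genes that set the large-artery cells apart were read without a test, since all genes of a cell come with the cells chosen. All 18 general arterial genes that were listed were higher than in the other ECs in 8 of 8 libraries. Against this, 13.9% of all 7620 genes were higher in 8 libraries and 14.1% were lower. Their summed level was 9875 to 15578 CPM in the large-artery cells and 2008 to 3921 CPM in the other ECs. Gja4, a gap junction connexin of arteries, had 1384.5 and 1236 CPM in spontaneous PBS, 1237 and 1277 CPM in spontaneous cGAMP, 1542 and 1373 CPM in implanted PBS and 1021.5 and 1174 CPM in implanted cGAMP libraries. The other ECs had at most 298 CPM. Gja4 was therefore high in the large-artery cells of every library, on average by 2.87 on the log2 scale.

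Of the genes beyond the markers, the mean log2 ratio to the other ECs was largest for Gper1 (3.91), a G protein-coupled oestrogen receptor, Atp2a3 (3.88), a calcium pump of the endoplasmic reticulum, and Serpinf1 (3.76), which encodes the antiangiogenic factor PEDF. The connexin Gja5 (3.57), the tyrosine kinase Bmx (3.43), Tmem100 (3.28), a BMP target of arterial ECs, and the matrix calcification inhibitor Mgp (3.22) were also among the 20 genes with the largest ratios. Others were Stmn2 (3.49), Cytl1 (3.46), S100a4 (3.46), the elastin crosslinking enzyme Lox (3.32), the serine protease Htra1 (3.27), Eps8l2 (3.23), the phosphatase Ptprj (3.13), Syt11 (3.12), Fgfr3 (3.11), Crispld1 (3.1), Pi16 (3.02), the mechanosensitive channel Trpv4 (2.96) and the heparan sulphatase Sulf1 (2.95). Elastic fibre genes were high as well, with a ratio of 2.91 for Fbln5 and 2.64 for Eln. So was the Notch ligand Jag1 (2.93).

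Markers of other ECs were low. The chemokine-binding receptor Ackr1 of venules had a mean log2 ratio of -4.77, the leukocyte adhesion molecule Selp -4.00 and the capillary gene Rgcc -2.41. In all 8 libraries 6 of the 8 venous, 7 of the 8 tip cell and 7 of the 7 lymphatic markers were lower than in the other ECs. The 2 venous markers outside this count were Ephb4 and Vcam1. Capillary genes were mixed, since Cd36, a fatty acid transporter, was higher in 8 of 8 libraries and Car4, Rgcc and Gpihbp1 were lower in 8 of 8.

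Arterial genes did not all separate the large-artery cells from the rest of the arterial tree. The 1257 other ECs with UMIs of at least 3 of Gja4, Gja5, Hey1, Bmx, Fbln5 and Sox17 were taken as the most like cells. Cxcl12, the chemokine that acts on CXCR4, was higher than in all other ECs by 0.62 on the log2 scale, but lower than in these arterial cells in 8 of 8 libraries, with a mean ratio of -0.59. Dll4, the Notch ligand of arterial and tip cells, was higher than in all other ECs by 0.72, while against the arterial cells it was higher in 5 of 8 libraries.

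The level of several genes moved with the number of gate markers in a cell, also among cells outside the threshold. Elastin (Eln) had 96.5 CPM in cells with 0 markers, 69.8 with 1, 82.9 with 2, 365 with 3, 648 with 4 and 1021 with 5 or 6. Mgp went over the same classes through 85.0, 191, 462, 815, 1632 and 2010 CPM, and Fbln5 through 130, 226, 581, 1106, 1404 and 1892 CPM. Mgp and Fbln5 thus increased at each step, from cells that the rule left out, whereas Eln was raised only from 3 markers on. The venous gene Selp went from 257 CPM with 0 markers to 11.6 CPM with 5 or 6.

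**Figure D2:**
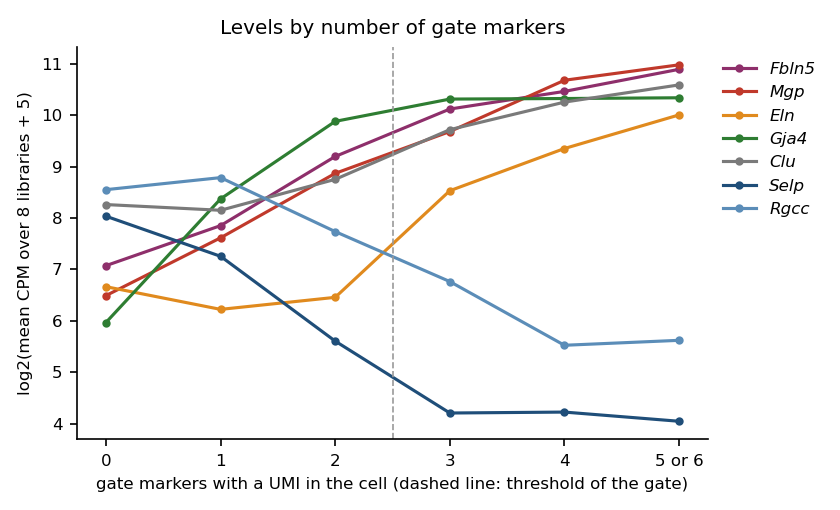
Mean level over the 8 libraries, in CPM, of 7 genes that the rule did not use (Fbln5, Mgp, Eln, Gja4, Clu, Selp and Rgcc), by the number of the 6 gate markers detected in a cell. Eln stands at 82.9 CPM with 2 markers and 365 CPM with 3, while Selp falls from 257 to 11.6 CPM between the ends of the scale.

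Markers of other lineages differed between libraries within the large-artery cells. The summed level of 9 mural markers (genes of pericytes and smooth muscle) was 138 and 2390 CPM in spontaneous PBS, 2744 and 2308 CPM in spontaneous cGAMP, 484 and 315 CPM in implanted PBS and 416 and 231 CPM in implanted cGAMP. In the other ECs it was 172 to 765 CPM, and the large-artery cells had the higher sum in 6 of 8 libraries. Of the 9 markers, Pdgfrb and Acta2 were higher in the large-artery cells in 8 of 8 libraries, and Kcnj8 in 0. The pericyte gene Rgs5 alone had 19.4, 1020, 1151 and 1027 CPM in the spontaneous libraries and 84.6, 12.3, 6.96 and 31.9 CPM in the implanted ones. The 3 libraries above 1000 CPM were all spontaneous. In the order of libraries above, 4, 10, 16, 12, 14, 18, 28 and 12 of the large-artery cells had UMIs of at least 2 mural markers, and comparisons below are also given without cells that carried markers of mural, immune or fibroblast cells. Epithelial markers summed to 250 to 893 CPM in the large-artery cells and 337 to 1783 CPM in the other ECs. Immune markers reached at most 51.8 CPM and fibroblast markers at most 99.7 CPM.

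The share of large-artery cells among the non-cycling ECs was lower after cGAMP in both models as measured. The cell numbers that the study lists per library differ from those deposited, and how the deposited cells were chosen is not settled, so the shares hold for the deposited cells only. In spontaneous tumours it was 12.7% (95% Wilson interval 10.6 to 15.2%) and 8.57% (6.48 to 11.2%) after PBS, and 6.62% (4.94 to 8.83%) and 6.30% (4.66 to 8.46%) after cGAMP. In implanted tumours it was 12.2% (10.2 to 14.6%) and 17.3% (14.95 to 19.9%) after PBS, and 9.29% (7.64 to 11.2%) and 9.91% (7.69 to 12.7%) after cGAMP. The groups did not overlap within either model, and the intervals, which cover counting error only, overlapped between single libraries. The means were 10.6% ± 2.93 against 6.46% ± 0.230 in spontaneous and 14.7% ± 3.57 against 9.60% ± 0.438 in implanted tumours (SD, n = 2).

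The share depends on the depth at which markers are detected. With each cell thinned to 4000 UMIs it was 9.19% and 4.07% after PBS against 4.08% and 3.52% after cGAMP in spontaneous tumours, so that the groups overlapped. In implanted tumours it was 7.77% and 11.9% against 8.06% and 6.02%, which overlapped too. No test of the shares was made with 2 libraries in a group. Whether fewer large-artery cells or less marker mRNA per cell gave the lower shares cannot be told apart.

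**Figure D3:**
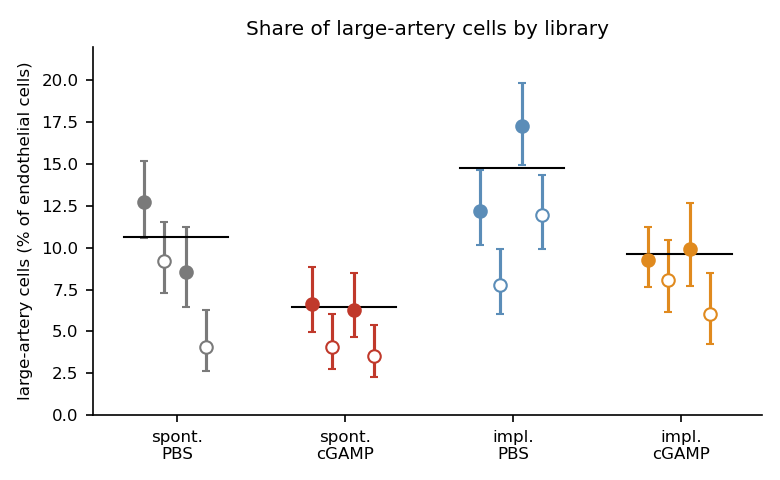
Share of large-artery cells among non-cycling ECs, in percent, for each of the 8 libraries, with 95% Wilson intervals as bars and the group mean as a line, for all UMIs (filled) and for cells thinned to 4000 UMIs (open). With all UMIs the cGAMP libraries lie at 6.30 to 6.62% and 9.29 to 9.91%, below the PBS libraries of the same model, and with thinned cells the groups overlap.

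To ask what cGAMP did to the large-artery cells, levels were compared between cGAMP and PBS in each model with limma, over 7181 genes and all 8 libraries in 1 fit. Interferon-stimulated genes and most antigen presentation genes rose, as did 7 of 10 chemokines in spontaneous and 3 of 10 in implanted tumours. Of 10 elastic matrix genes 5 fell in each model, and several genes characteristic of the large-artery cells fell as well. In spontaneous tumours 255 genes were called at an adjusted p under 0.05, or 3.55% of those tested, 166 of them higher (2.31%) and 89 lower (1.24%). In implanted tumours 328 genes were called (4.57%), 191 higher (2.66%) and 137 lower (1.91%). Both responses called 155 genes, 126 raised and 29 lowered in both, with 0 in opposite directions. These were 60.8% of the spontaneous and 47.3% of the implanted calls.

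The size of these lists depended on single libraries. Without spontaneous PBS replicate 1 149 genes were called in spontaneous tumours. Without replicate 1 or 2 of implanted PBS 155 and 159 genes were called in implanted tumours, and without replicate 1 or 2 of implanted cGAMP 196 and 214. Without the cells that carried mural, immune or fibroblast markers there were 243 and 217 calls. Scaling the libraries by the median ratio of their genes changed the balance from 166 higher and 89 lower to 192 and 53 in spontaneous tumours, and from 191 and 137 to 220 and 102 in implanted tumours. All 8 libraries are separate samples by their labels, so p-values measure the spread between these samples.

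The interferon-stimulated genes gave the largest changes. All 8 interferon genes named by the study were raised in both models, with a median log2 fold change of 4.21 in spontaneous and 3.34 in implanted tumours against -0.09 and -0.06 over all genes. The study chose these 8 on the same samples, so they are no independent evidence of the direction. Of 25 other interferon-stimulated genes, 25 were raised in each model, with medians of 2.65 and 2.46. Among all genes tested 2.31% and 2.66% were raised. This list too was chosen with earlier results of these data known, so it is no independent evidence either. Fold changes are on the log2(CPM + 5) scale, which understates the change of genes with low levels.

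Irf7, the transcription factor that amplifies type I interferon, had 43.3 and 52.0 CPM in spontaneous PBS and 1374 and 1789 CPM in spontaneous cGAMP libraries. It had 85.4 and 57.0 CPM in implanted PBS and 1481 and 1324 CPM in implanted cGAMP libraries. The groups were far apart, and the log2 fold change was 4.91 ± 0.19 (SE, adjusted p = 2.91e-09) and 4.23 ± 0.19 (adjusted p = 2.21e-08). An Irf7 UMI was found in 40 of 42 and 40 of 40 large-artery cells of spontaneous cGAMP and in 92 of 93 and 55 of 55 of implanted cGAMP, against 25 of 104, 14 of 46, 43 of 100 and 53 of 157 in the PBS libraries. With cells thinned to 2000 UMIs the share was still 81.0 to 92.7% after cGAMP and 8.97 to 19.0% after PBS. After cGAMP Irf7 UMIs were thus found in nearly all large-artery cells. Among Pecam1-negative cells of the cGAMP libraries, which are not known to lack the gene, the thinned share was 72.1 to 93.8%, so free RNA cannot be told apart from expression in single cells here either.

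The IFIT genes, whose proteins bind foreign RNA, rose from low levels. Ifit3 had 3.63 and 7.53 CPM in spontaneous PBS, 351 and 426 CPM in spontaneous cGAMP, 26.5 and 29.4 CPM in implanted PBS and 437 and 347 CPM in implanted cGAMP. The cGAMP libraries of both models were alike in level, and the PBS libraries of the implanted tumours were higher than those of the spontaneous ones. The log2 fold change of Ifit3 was 5.24 in spontaneous and 3.58 in implanted tumours. Ifit1 rose by 4.78 and 4.18, from 12.02, 17.3, 28.1 and 28.1 CPM in the PBS libraries to 402, 699, 611 and 578 CPM in the cGAMP libraries. Ifit3b, a near-identical copy of Ifit3 whose reads may be split between both genes, rose by 4.70 and 3.88.

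Other antiviral genes moved the same way. Rsad2, which encodes the radical SAM enzyme viperin, rose by 4.69 and 4.16 on the log2 scale, and the interferon-inducible Ifi27l2a by 2.72 and 3.84. Isg15, a ubiquitin-like modifier, had 108 and 120 CPM in spontaneous PBS against 1240 and 1824 CPM in spontaneous cGAMP, and 203 and 254 CPM in implanted PBS against 2065 and 1996 CPM in implanted cGAMP. Its fold changes were 3.67 and 3.13. Bst2, the tetherin that holds virions at the cell surface, rose by 3.73 and 3.56, and Xaf1 by 2.31 and 1.78.

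Because the interferon genes moved together, the promoter windows of RefSeq (assembly GRCm38.p6, 250 bases before to 50 bases after a gene's start) were searched for GAAANNGAAA on both strands, the core of the interferon-stimulated response element. The motif was present in 1079 of 27025 promoters (3.99%) and in 228 of the 5660 promoters matched to tested genes (4.03%). Among genes raised in both models 35 of 101 promoters held it (34.7%), and among those lowered in both 0 of 15. The count of 0 allows a share of up to 20%. Of the 9 genes named for the largest rise, 7 had a window, and the motif lay in those of Ifit3, Ifit1, Cxcl10, Ifit3b and Rsad2 but not in those of Cxcl9 and Irf7. The stretches below, with 40 bases on either side where the window allows, are given 5′ to 3′ on the gene's strand, with the matched letters in capitals, because these genes carry the response. The Ifit3 stretch lies at chr19:34583333-34583422 (plus strand), Ifit1 at chr19:34640745-34640834 (plus), Cxcl10 at chr5:92349053-92349139 (minus) and Rsad2 at chr12:26456523-26456612 (minus).
Ifit3: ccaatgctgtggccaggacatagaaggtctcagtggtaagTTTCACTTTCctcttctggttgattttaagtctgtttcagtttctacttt
Ifit1: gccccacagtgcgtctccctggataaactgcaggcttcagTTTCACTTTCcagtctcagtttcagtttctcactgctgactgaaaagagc
Cxcl10: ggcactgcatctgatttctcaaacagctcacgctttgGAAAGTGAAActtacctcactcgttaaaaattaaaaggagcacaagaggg
Rsad2: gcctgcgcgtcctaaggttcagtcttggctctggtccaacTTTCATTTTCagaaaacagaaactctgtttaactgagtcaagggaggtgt
The Ifit3 and Ifit1 windows each hold 2 matches, and the second is left in lower case. A match describes the letters and is no evidence that a factor binds there.

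The levels of chemokines that attract T cells rose in libraries of large-artery cells. For the 3 described here free RNA could not be told apart from expression either. Ccl5, a chemokine of the CC family, had 3.14 and 0 CPM in spontaneous PBS, 308 and 422 CPM in spontaneous cGAMP, 4.601 and 0.996 CPM in implanted PBS and 568 and 413 CPM in implanted cGAMP. Every cGAMP library was far above every PBS library. The log2 fold change was 5.84 ± 0.31 (adjusted p = 2.49e-08) in spontaneous and 6.01 ± 0.31 (adjusted p = 5.79e-08) in implanted tumours. In UMIs, Ccl5 went from 2 to 701 in spontaneous tumours, a ratio of 495 relative to all UMIs of the cells (95% counting interval 137 to 4098), and from 6 to 1348 in implanted tumours.

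Ccl5 was not detected in every cell. A UMI was found in 18 of 42, 13 of 40, 65 of 93 and 31 of 55 large-artery cells of the cGAMP libraries, and in at most 4 cells of any PBS library. A single cell gave 71.4% and 57.1% of the mean in the spontaneous cGAMP libraries and 27.6% and 29.7% in the implanted ones. Thinned to 2000 UMIs, Ccl5 was found in 19.0%, 15%, 31.5% and 25.5% of large-artery cells after cGAMP and in 26.5%, 16.3%, 60.9% and 43.8% of Pecam1-negative cells of the same libraries. The large-artery share was below the latter in each library, so free RNA cannot be told apart from expression at this depth. The other ECs had 2067, 1332, 2584 and 2034 CPM of Ccl5 after cGAMP.

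The CXCR3 ligands were more variable. Cxcl9 had 0.602 and 2.70 CPM in spontaneous PBS and 91.9 and 521 CPM in spontaneous cGAMP, and rose by 5.10 ± 0.52 (adjusted p = 2.42e-05). In implanted tumours it went from 54.9 and 36.3 to 497 and 670 CPM, a rise of 3.55 ± 0.52 (adjusted p = 0.000776). Cxcl10 had 1.27 and 0 CPM in spontaneous PBS, 226 and 93.3 CPM in spontaneous cGAMP, 6.03 and 20.6 CPM in implanted PBS and 367 and 144 CPM in implanted cGAMP. It rose by 4.75 ± 0.48 and by 3.81 ± 0.48 (adjusted p = 0.000229 in implanted tumours). In spontaneous tumours the Cxcl10 rise was from 2 to 282 UMIs, a ratio of 199 (95% counting interval 54.7 to 1653). Without the cells that carried markers of other lineages its adjusted p was 0.162 and 0.0574, so the Cxcl10 call was lost in both models. Thinned to 2000 UMIs, Cxcl9 was found in 9.52 to 35.9% of large-artery cells after cGAMP and in 30.2 to 70.3% of Pecam1-negative cells, and Cxcl10 in 7.5 to 21.7% and 16.3 to 50%. Both shares were below those of the Pecam1-negative cells in each library. In all, 7 of 10 chemokines were raised in spontaneous tumours (Ccl2, Ccl7, Ccl5, Cxcl9, Cxcl10, Cxcl16 and Cx3cl1), and 3 were raised without those cells (Ccl5, Cx3cl1 and Cxcl9). In implanted tumours 3 were raised (Ccl5, Cxcl9 and Cxcl10) and Cxcl12 was lowered, and without those cells 2 were raised (Ccl5 and Cxcl9).

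Antigen presentation genes rose in both models. Of 20 listed genes 18 were raised in spontaneous tumours, with a median log2 fold change of 1.84, and 15 in implanted tumours, with a median of 1.06. B2m, the light chain of MHC class I, had 979 and 1075 CPM in spontaneous PBS, 4449 and 4961 CPM in spontaneous cGAMP, 1956 and 1515 CPM in implanted PBS and 5536 and 5275 CPM in implanted cGAMP. The groups were well separated, and the implanted PBS libraries started from a higher level than the spontaneous ones. B2m rose by 2.19 and 1.65, the class I heavy chain H2-K1 by 2.14 and 1.41, H2-D1 by 1.48 and 0.995, and the immunoproteasome subunit Psmb8 by 1.59 and 1.03. The implanted rise of Psmb8 was not called without implanted PBS replicate 2 (adjusted p = 0.0617) or replicate 1 of implanted cGAMP (0.0516).

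MHC class II genes had higher levels in implanted tumours to begin with. Cd74, the class II invariant chain, had 0.931 and 4.12 CPM in spontaneous PBS, 37.9 and 52.5 CPM in spontaneous cGAMP, 168 and 51.7 CPM in implanted PBS and 76.0 and 69.6 CPM in implanted cGAMP. The spontaneous groups were apart, and the implanted groups overlapped. Cd74 rose by 2.75 ± 0.42 (adjusted p = 0.000925) in spontaneous tumours, where the PBS libraries held 3 UMIs and the cGAMP libraries 53 (ratio 24.97, 95% counting interval 8.09 to 125). In implanted tumours its change was -0.35 (adjusted p = 0.811). H2-Ab1, a class II beta chain, rose by 1.88 in spontaneous tumours (adjusted p = 0.0247), but was not called without replicate 1 (0.168) or 2 (0.0739) of spontaneous PBS or replicate 2 of spontaneous cGAMP (0.192).

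The adhesion molecule Vcam1, which binds leukocyte integrins, was the 1 of 7 leukocyte adhesion genes raised in spontaneous tumours. It had 62.8 and 43.5 CPM after PBS and 248 and 305 CPM after cGAMP, a rise of 2.29 ± 0.23 (adjusted p = 2.17e-05). In implanted tumours it had 400 and 237 CPM after PBS and 491 and 454 CPM after cGAMP, and the change of 0.61 ± 0.23 was not called (adjusted p = 0.215). The PBS libraries of implanted tumours thus stood near the cGAMP libraries of spontaneous tumours. Iigp1, an immunity-related GTPase, behaved in a like manner, with 45.0 and 90.8 CPM against 574 and 745 CPM in spontaneous tumours (3.25) and 488 and 317 CPM against 1216 and 893 CPM in implanted tumours (1.39). The implanted rise of Iigp1 was not called without implanted PBS replicate 2 (adjusted p = 0.0919) or replicate 1 of implanted cGAMP (0.103).

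**Figure D4:**
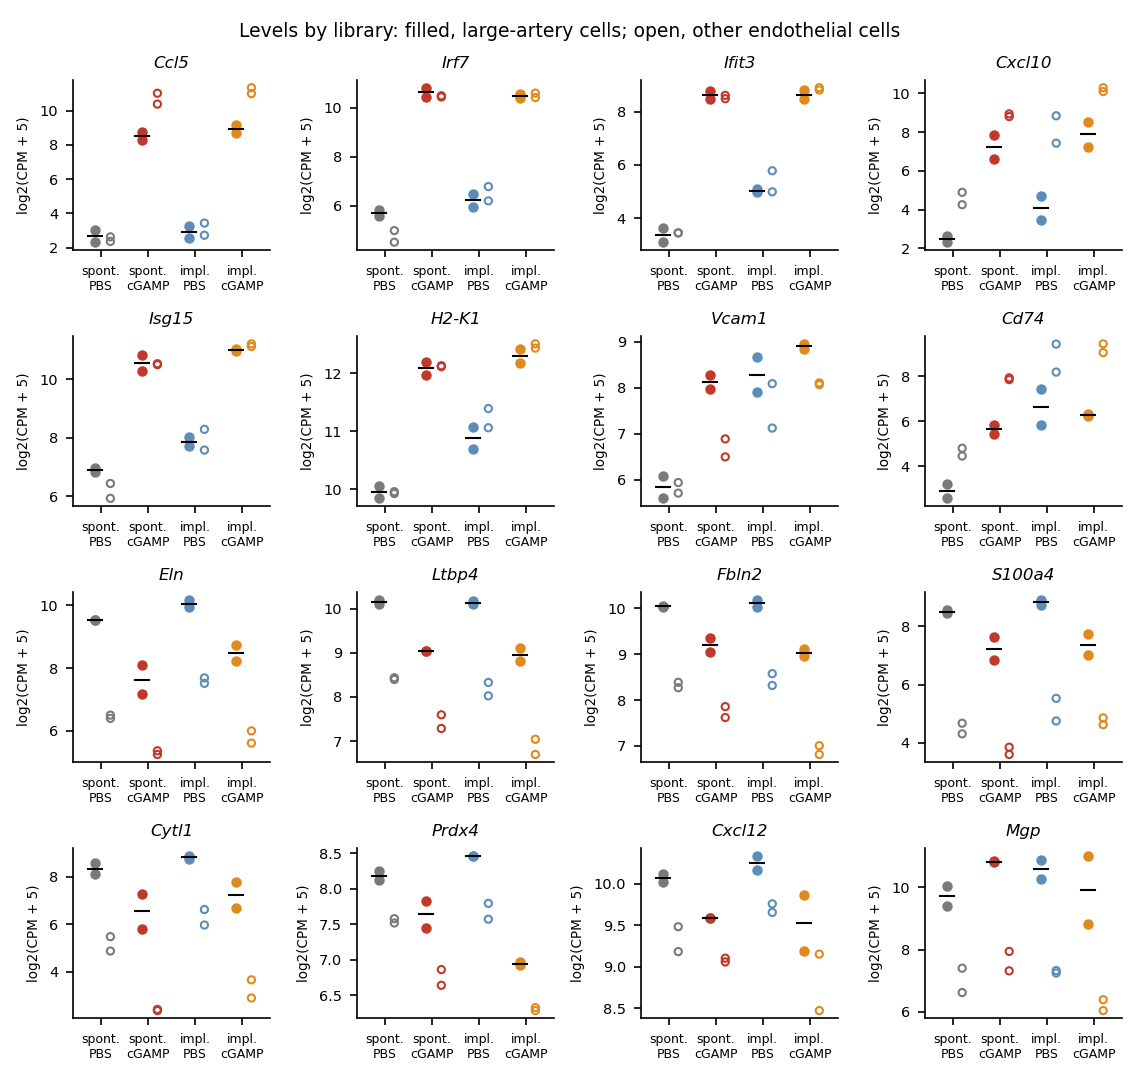
Level in CPM, on a log axis, of 16 genes in the large-artery cells (filled) and the other ECs (open) of each of the 8 libraries, with bars for the group means. Irf7, Ifit3 and Isg15 lie far higher after cGAMP in both models, Eln, Ltbp4 and Fbln2 lie lower, and Vcam1 and Cd74 differ between the models after PBS.

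Genes of the elastic matrix fell in both models. Of 10 listed genes 5 were lowered in spontaneous tumours (Eln, Fbln2, Ltbp4, Lox and Fn1), with a median of -0.65, and 5 in implanted tumours (Eln, Fbln5, Fbln2, Ltbp4 and Fn1), with a median of -0.62. None was raised in either model, and the same genes were called without the cells that carried mural, immune or fibroblast markers. Eln, which encodes elastin, had 732 and 743 CPM in spontaneous PBS and 268 and 139 CPM in spontaneous cGAMP. It had 1147 and 975 CPM in implanted PBS and 421 and 297 CPM in implanted cGAMP. All cGAMP libraries were below all PBS libraries, and the log2 fold change was -1.90 ± 0.24 (adjusted p = 0.000155) and -1.57 ± 0.24 (adjusted p = 0.00101). An Eln UMI was found in 62.5 to 72.0% of the large-artery cells of all 8 libraries. These shares were not thinned to a common depth. Whether the level per cell or the share of cells with Eln moved was therefore not tested. With UMIs summed over the cells of a library the implanted change of Eln was not called (adjusted p = 0.0885).

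Ltbp4, a latent TGF-beta binding protein needed for elastic fibre assembly, gave the most even change. It had 1167 and 1102 CPM in spontaneous PBS against 520 and 523 CPM after cGAMP, and 1101 and 1140 CPM in implanted PBS against 545 and 444 CPM after cGAMP. The change was -1.11 ± 0.13 (adjusted p = 7.78e-05) and -1.18 ± 0.13 (adjusted p = 6.78e-05), and it was called under each of the 20 alternative settings. Fbln2, a fibulin of the subendothelial matrix, had 1062, 1050, 1043 and 1160 CPM in the PBS libraries and 652, 526, 550 and 493 CPM in the cGAMP libraries of the 2 models in the same order. It fell by 0.84 (adjusted p = 0.00156) and by 1.07 (adjusted p = 0.000229) on the log2 scale. Its PBS levels lay within a narrow range in both models.

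Fbln5, a fibulin that organises elastin, had 1804 and 1518 CPM against 1286 and 1140 CPM in spontaneous and 1649 and 1520 CPM against 1064 and 1050 CPM in implanted tumours. The change of -0.45 was not called in spontaneous tumours (adjusted p = 0.059), and that of -0.58 was called in implanted tumours (adjusted p = 0.0119) but not without either implanted PBS replicate (0.161 and 0.0526) or replicate 2 of implanted cGAMP (0.0528). Lox had 91.3 and 105.3 CPM against 41.7 and 40.9 CPM in spontaneous tumours, a change of -1.16 (adjusted p = 0.0215), which leaving out any 1 of the 4 spontaneous libraries took to an adjusted p of 0.0717 to 0.151.

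Several genes that marked the large-artery cells fell as well. Of the 20 genes with the largest ratio to the other ECs 7 were lowered in spontaneous tumours (Atp2a3, Serpinf1, Stmn2, Cytl1, S100a4, Lox and Htra1) and 5 in implanted tumours (Serpinf1, Stmn2, Cytl1, S100a4 and Htra1), and 0 were raised. Over all genes tested 1.24% and 1.91% were lowered. The 20 genes were picked on these same libraries, and Lox is also in the elastic matrix list. None of the 6 gate markers was called, but a UMI of 3 of them was a condition for a cell to be counted. Of the 18 general arterial genes 4 were lowered in spontaneous tumours (Fbln2, Eln, Stmn2 and Ltbp4) and 8 in implanted tumours (Jag1, Unc5b, Cxcl12, Fbln5, Fbln2, Eln, Stmn2 and Ltbp4), with medians of -0.44 and -0.50. These counts are not separate from those above. Fbln5, Fbln2, Eln and Ltbp4 are also in the elastic matrix list, and Stmn2 is among the 20 genes. Without the cells that carried markers of other lineages 3 and 6 were lowered in spontaneous and implanted tumours, and with scaling by the median ratio 7 were lowered and 1 was raised in implanted tumours.

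S100a4, a calcium-binding protein, had 368 and 343 CPM in spontaneous PBS against 192 and 109 CPM after cGAMP, and 424 and 473 CPM in implanted PBS against 125 and 206 CPM. It fell by 1.27 (adjusted p = 0.00857) and by 1.45 (adjusted p = 0.00252). Htra1, a secreted serine protease that cleaves matrix proteins, had 502 and 355 CPM against 174 and 205 CPM in spontaneous and 581 and 516 CPM against 259 and 175 CPM in implanted tumours. The groups of both genes were apart in both models, and Htra1 fell by 1.14 (adjusted p = 0.00388) and by 1.34 (adjusted p = 0.000943). Stmn2, a regulator of microtubules, fell by 0.61 (adjusted p = 0.0184) and by 1.26 (adjusted p = 5.81e-05), from 1496, 1201, 1682 and 1665 CPM in the PBS libraries to 953, 807, 724 and 674 CPM after cGAMP.

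Cytl1, a small secreted protein, had 377 and 276 CPM against 50.7 and 151 CPM in spontaneous and 432 and 467 CPM against 219 and 97.2 CPM in implanted tumours. Its change was -1.81 (adjusted p = 0.0172) and -1.59 (adjusted p = 0.0326). Ptn, the growth factor pleiotrophin, had 122 and 102 CPM against 13.8 and 39.98 CPM in spontaneous and 49.0 and 27.7 CPM against 7.66 and 0.5002 CPM in implanted tumours. Its change was -2.00 (adjusted p = 0.0209) and -2.33 (adjusted p = 0.00673). Both genes had higher levels after PBS in every library, with a large spread.

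Other genes were called in spontaneous tumours, where the difference from the implanted response was not called. Spp1, the phosphoprotein osteopontin, had 221 and 83.1 CPM against 47.6 and 29.2 CPM in spontaneous tumours and changed by -1.73 (adjusted p = 0.0295), where a single cell gave 48.5% of the mean in replicate 1 of spontaneous PBS. In implanted tumours Spp1 changed by -0.37 (adjusted p = 0.793). The intermediate filament Nes changed by -1.27 (adjusted p = 0.00108) and -0.53 (adjusted p = 0.202), and the sialidase Neu1 by -1.44 in spontaneous tumours (adjusted p = 0.0052). Slco2a1, a prostaglandin transporter, changed by -1.31 in spontaneous tumours (adjusted p = 0.0488), a call that was lost in 15 of the 20 alternative settings.

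Leaving out single spontaneous libraries ended several of these calls in spontaneous tumours. Without spontaneous PBS replicate 1 the adjusted p was 0.174 for Ptn, 0.178 for Cytl1, 0.101 for S100a4, 0.269 for Spp1, 0.0699 for Neu1, 0.186 for Stmn2, 0.0877 for Htra1 and 0.0906 for Slco2a1. Without replicate 2 it was 0.0976 for Ptn, 0.0667 for Cytl1, 0.0566 for S100a4 and 0.301 for Slco2a1. Without spontaneous cGAMP replicate 1 it was 0.148 for Ptn, 0.134 for Cytl1 and 0.182 for Slco2a1. Without replicate 2 it was 0.1 for S100a4, 0.179 for Spp1, 0.153 for Stmn2 and 0.067 for Slco2a1. Pam was lost without either spontaneous PBS replicate (0.0937 and 0.0697) or replicate 1 of spontaneous cGAMP (0.0892), and Ddah1 without spontaneous PBS replicate 2 (0.0817) or of spontaneous cGAMP (0.0531). Eln and Nes were called in each of these fits.

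In implanted tumours the lowered genes named by size were led by Cd109, Ptn, Trf, Cytl1 and Eln. Cd109, a membrane-anchored TGF-beta co-receptor, had 69.5 and 55.9 CPM after PBS and 4.46 and 8.74 CPM after cGAMP, a change of -2.56 (adjusted p = 0.00155). In spontaneous tumours it had 38.0 and 58.8 CPM against 31.7 and 9.34 CPM, a change of -1.19 (adjusted p = 0.134). Prdx4, the peroxiredoxin of the endoplasmic reticulum, had 347 and 347 CPM after PBS and 120 and 116 CPM after cGAMP in implanted tumours, a change of -1.51 (adjusted p = 6.49e-05). In spontaneous tumours it had 273 and 298 CPM against 170 and 222 CPM, a change of -0.54 (adjusted p = 0.0897).

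Pam, which amidates secreted peptides, changed by -1.09 (adjusted p = 0.0104) in spontaneous and -1.51 (adjusted p = 0.00073) in implanted tumours. Ddah1, which degrades an inhibitor of nitric oxide synthase, changed by -1.23 and -1.49 and was called in both. The matrix protein Npnt changed by -0.69 (adjusted p = 0.0918) and -1.46 (adjusted p = 0.000657), and Trf, transferrin, by -0.62, which was not called, and -1.59 (adjusted p = 0.00898). In implanted tumours the calls of Ptn (adjusted p = 0.103) and Cytl1 (0.114) were lost without implanted PBS replicate 1, and those of Cytl1 (0.152) and Trf (0.106) without replicate 2. Without implanted cGAMP replicate 1 Trf was lost (0.0647), and without replicate 2 Ptn (0.0825), Cytl1 (0.36) and Trf (0.0522). Cytl1 was also lost without either spontaneous PBS replicate (0.0682 and 0.065), since all libraries share 1 estimate of the spread. In spontaneous tumours Cd109 was called without spontaneous cGAMP replicate 1 (0.0186) and Npnt without spontaneous PBS replicate 2 (0.0234).

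Basement membrane genes were lowered in implanted tumours, where 6 of 10 were called (median -0.67), against 0 of 10 in spontaneous tumours. Nid2, which links laminin to collagen IV, had 41.1 and 35.2 CPM after PBS and 7.27 and 16.1 CPM after cGAMP and changed by -1.42. Lamb2 changed by -0.96, the heparan sulphate proteoglycan Hspg2 by -0.92, Col4a2 by -0.77 and Col4a1 by -0.57 (adjusted p = 0.0472). Without the cells that carried markers of other lineages 1 of the 10 was called in implanted tumours (Lamb2) and 1 in spontaneous tumours (Nid2), and with scaling by the median ratio 5 were called in implanted tumours. Leaving out replicate 1 of implanted PBS took the adjusted p to 0.332 for Nid2, 0.194 for Lamb2, 0.0935 for Hspg2, 0.122 for Col4a2 and 0.33 for Col4a1. Calls lost without implanted PBS replicate 2 (Nid2, Lamb2, Hspg2 and Col4a1), replicate 1 of implanted cGAMP (Nid2, Lamb2, Col4a2 and Col4a1) or replicate 2 (Hspg2 and Col4a1) had adjusted p-values of 0.0706 to 0.217. The summed mural markers in these libraries were 484 and 315 CPM after PBS and 416 and 231 CPM after cGAMP, and their part in the count was not tested.

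Few Notch, tone and junction genes were called, where 3.55% and 4.57% of all genes were called in spontaneous and implanted tumours. In lists this short, few calls do not show that the genes were unchanged. Jag1 was the 1 of 13 Notch pathway genes called, in implanted tumours, where it had 451 and 455 CPM after PBS and 255 and 234 CPM after cGAMP (-0.88, adjusted p = 0.0017). In spontaneous tumours Jag1 had 307 and 330 CPM against 299 and 262 CPM. Of 11 genes of shear response and tone, Cav1 was lowered in spontaneous and Ece1 raised in implanted tumours. With scaling by the median ratio the single call in spontaneous tumours was a rise. Of 12 junction genes 0 were called in spontaneous tumours and Gja1 was lowered in implanted tumours.

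Lists of downstream STING and inflammatory signalling were mostly not called. Of 12 genes of STING and interferon signalling, Socs1, a feedback inhibitor of cytokine receptors, was raised in each model. Of 15 TNF and NF-kB target genes, Vcam1 and Ccl2 were raised in spontaneous tumours and Csf1 in implanted tumours. Of 10 pro-apoptotic genes and 10 survival genes 0 were called in either model. Over all genes 3.55% and 4.57% were called, so 0 of 10 is no evidence that these genes did not respond. Of 10 immediate early genes Zfp36 was called in implanted tumours, with 4 called after scaling by the median ratio, and of 6 heat shock genes Hspb1.

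The arterial chemokine Cxcl12 had 1031 and 1100 CPM in spontaneous PBS against 762 and 762 CPM after cGAMP, a change of -0.48 (adjusted p = 0.156). In implanted tumours it had 1283 and 1138 CPM against 576 and 922 CPM, a change of -0.72 (adjusted p = 0.0283). This call was lost without replicate 1 (0.239) or 2 (0.0722) of implanted PBS, replicate 1 of implanted cGAMP (0.186) and replicate 1 (0.0541) or 2 (0.0526) of spontaneous PBS. Mgp, which marked the large-artery cells, had 1040 and 675 CPM against 1784 and 1832 CPM in spontaneous tumours (1.10, adjusted p = 0.214) and 1868 and 1237 CPM against 2045 and 452 CPM in implanted tumours (-0.66, adjusted p = 0.594). Its implanted cGAMP replicates lay further apart than the groups. Without either one of them Mgp was called as raised in spontaneous tumours (adjusted p = 0.00752 and 0.00712), and without replicate 1 it was called as lowered in implanted tumours (0.00217).

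**Figure D5:**
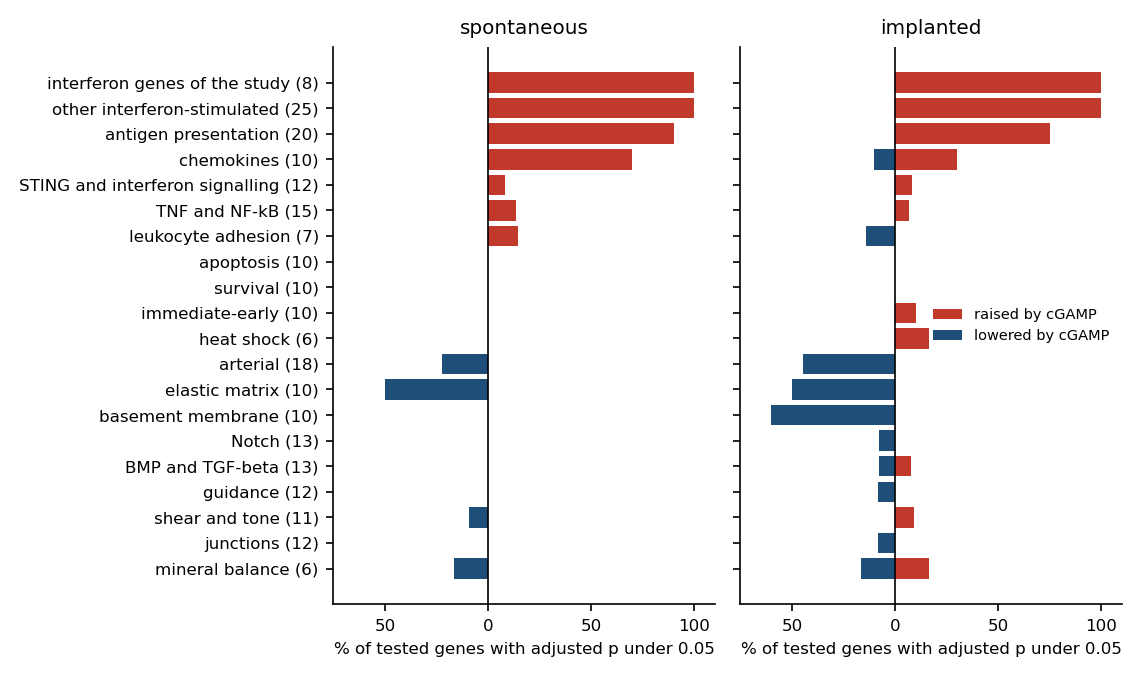
Percentage of the tested genes of each list that were called higher or lower after cGAMP in the large-artery cells of spontaneous and of implanted tumours. The interferon lists reach 100% raised in both models, and the elastic matrix list has 5 of 10 genes lowered in both. The pro-apoptotic and survival lists have 0 called, which in lists this short is no evidence of no change.

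Whether the response differed between the models was tested as an interaction in the same fit. Of 7181 genes 0 were called (0.0%), with 540 at an unadjusted p under 0.05 (7.52%) and a lowest adjusted p of 0.27. In simulated data the interaction test called 61% of 4-fold and 2% of 2-fold differences. The simulation gave all genes the same assumed spread and changed only well-expressed genes, so these shares may not hold for the data. The 0 calls are therefore no evidence of equal responses. For Vcam1 the implanted minus the spontaneous response was -1.68 ± 0.33 (adjusted p = 0.27). For Cd74 the difference was -3.10, for Iigp1 -1.86 and for Ifit3 -1.65, each at an adjusted p of 0.27. These genes had higher PBS levels in implanted tumours. Leaving out single libraries gave 0 to 4 calls, with 1 (Acta2) without spontaneous PBS replicate 2, 2 (Cxcl9 and Nts) without spontaneous cGAMP replicate 1, 4 (Cd74, Gbp3, Timp3 and Vcam1) without implanted PBS replicate 2 and 3 (Csn3, Esm1 and Mgp) without implanted cGAMP replicate 1. Without cells with markers of other lineages Cd74 was called.

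Implanted and spontaneous tumours were also compared within each treatment. After PBS 58 genes were called (0.808%), 31 higher in implanted tumours (0.432%) and 27 lower (0.376%). Higher in implanted tumours were Cd74 by 3.75 (adjusted p = 0.000577), H2-Ab1 by 2.89 (adjusted p = 0.00543), Iigp1 by 2.53 (adjusted p = 0.000551) and Vcam1 by 2.45 (adjusted p = 0.00032), the genes whose levels are given above. Nts, the peptide neurotensin, had 0.872 and 6.81 CPM in spontaneous and 117 and 113 CPM in implanted PBS libraries (3.85, adjusted p = 0.0235), from 11 of 100 and 21 of 157 implanted cells. Cd74, H2-Ab1, Iigp1 and Vcam1 were thus higher in the large-artery cells of implanted tumours in the absence of cGAMP, and Nts was found in a minority of them.

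Lower in implanted tumours after PBS were Serpine2 by 2.60 (a difference of -2.60, adjusted p = 0.0175), Ednrb, the endothelin B receptor (-1.71, adjusted p = 0.0401), Insr, the insulin receptor (-1.65, adjusted p = 0.000613), Sgms1 (-1.47, adjusted p = 0.00543) and the heat shock gene Hspa1b (-1.45, adjusted p = 0.00543). Insr had 191 and 201 CPM in spontaneous and 61.9 and 56.5 CPM in implanted PBS libraries, and Hspa1b 543 and 953 CPM against 264 and 255 CPM. Neither gene overlapped between the models. Serpine2 had 18.1 and 89.3 CPM against 2.45 and 2.91 CPM, and the spontaneous library with more Serpine2 was also the one with 2390 CPM of summed mural markers. After cGAMP Insr was lower by 1.97 as well (a difference of -1.97, adjusted p = 0.000172), and Hspa1b differed by -1.94 (adjusted p = 0.00107).

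The comparison after PBS moved strongly with single libraries, with 96 calls without spontaneous PBS replicate 1, 14 without replicate 2 and 12 without implanted PBS replicate 1. Without implanted PBS replicate 1 the adjusted p was 0.138 for Nts, 0.124 for H2-Ab1, 0.106 for Serpine2, 0.383 for Ednrb and 0.0866 for Sgms1. Without spontaneous PBS replicate 2 it was 0.15 for Nts, 0.0664 for H2-Ab1, 0.15 for Serpine2, 0.599 for Ednrb, 0.116 for Sgms1 and 0.103 for Hspa1b. Nts was also lost without spontaneous PBS replicate 1 (0.171), and Nts (0.0848) and Serpine2 (0.0523) without implanted PBS replicate 2. Ednrb was also lost without replicate 1 (0.0624) or 2 (0.0626) of spontaneous cGAMP. Cd74, Iigp1, Vcam1 and Insr were called in each of these fits.

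After cGAMP 162 genes were called (2.26%), 42 higher in implanted tumours (0.585%) and 120 lower (1.67%). The genes lowest in implanted tumours were Rgs5 (-5.70, adjusted p = 0.0222), Higd1b (-4.18, adjusted p = 0.00375), Postn (-4.11, adjusted p = 0.0132), Scgb2b27 (-3.84, adjusted p = 0.0244) and Cygb (-3.68, adjusted p = 0.0107). Rgs5, Higd1b and Cygb are known from pericytes, and the summed level of the 9 mural markers was 2744 and 2308 CPM in these spontaneous libraries against 416 and 231 CPM in the implanted ones. Without the cells that carried mural, immune or fibroblast markers 40 genes were called, 14 higher and 26 lower, and Rgs5 (at most 30.2 CPM), Higd1b (5.25 CPM), Postn (8.11 CPM), Cygb (8.32 CPM) and Serpine2 (8.36 CPM) no longer reached the level needed to be tested. Scgb2b27 had 155 and 26.9 CPM in the spontaneous libraries and is a secretoglobin, a family expressed by glands.

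Higher in implanted tumours after cGAMP were Ms4a6d (2.32, adjusted p = 0.0272), Ms4a6b (2.21, adjusted p = 0.031), the immediate early gene Egr3 (2.12, adjusted p = 0.0133), the choline kinase Chka (1.74, adjusted p = 0.0294) and the TWEAK receptor Tnfrsf12a (1.63, adjusted p = 0.00645). Ms4a6d had 16.4 and 97.3 CPM in spontaneous and 217 and 240 CPM in implanted cGAMP libraries, and Egr3 21.7 and 9.10 CPM against 56.6 and 111 CPM. The groups did not overlap, and the spontaneous libraries of Ms4a6d were spread widely. There were 50 and 70 calls without replicate 1 or 2 of spontaneous cGAMP, and 74 and 49 without replicate 1 or 2 of implanted cGAMP. Of the 10 genes named after cGAMP, each lost its call in at least 1 of these fits, with adjusted p-values of 0.0512 to 0.24, and Higd1b did so only without spontaneous cGAMP replicate 1 (0.0557).

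Finally, the response of the large-artery cells was set against that of the other ECs of the same libraries. With the difference taken within each library, 0 of 7620 genes were called in either model (0.0%), with 769 and 572 at an unadjusted p under 0.05 in limma in spontaneous and implanted tumours (10.1% and 7.51%). Against the 1257 other arterial cells 0 of 7562 genes were called (0.0%), with 695 and 476 at an unadjusted p under 0.05 (9.19% and 6.29%). For Ccl5 the large-artery response minus that of the other ECs was -2.36 and -2.07 on the log2 scale, at adjusted p-values of 0.25 and 0.28. With a pseudocount of 20 CPM 2 and 14 genes were called against the other ECs in spontaneous and implanted tumours, Ccl5 among them in both models, and 0 and 2 against the other arterial cells.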

How the data were processed

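ECs of mouse breast tumours were sequenced in 8 libraries, 2 per group, and grouped by their labels alone. The authors aligned reads to mm10 with Cell Ranger 3.0.0, removed cells with under 500 genes or over 10% mitochondrial transcripts and genes in fewer than 3 cells, and deposited natural log values, ln(1 + UMIs × 10000 / total UMIs of the cell), per the submitters' notes made with Seurat 3.1.1. Dividing by the smallest value of a cell gave whole UMIs for 100% of values (tolerance 0.01), from which all levels and thinned values were computed. All numeric columns belonged to a library.

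The level of a gene was its mean CPM over the large-artery cells of a library. Genes that reached 20 CPM in 2 or more libraries entered the fit, and log2(CPM + 5) was tested with limma 3.58.1 (R 4.3.3, eBayes with trend), 4 group means in 1 fit, with Benjamini-Hochberg adjustment over all genes tested and a call at an adjusted p under 0.05. Differences between cell classes used the within-library difference. Other steps used Python 3.11.15 with numpy 2.4.6, pandas 2.3.3 and scipy 1.17.1. The fit was tested on simulated UMI sums with 200 genes changed in the implanted cGAMP libraries. All genes were given the same assumed spread between libraries, only well-expressed genes were changed, and single cells were not simulated. For the response it called 98% of 4-fold and 22% of 2-fold changes, and for the interaction 61% and 2%. It also called 2 and 3 unchanged genes. No doublet caller was run. Depth was 488076 to 1868645 UMIs per library in the large-artery cells. Intervals cover counting error only.

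The genes named were the 8 largest called changes in each direction per response with at least 50 CPM in the higher group and groups that did not overlap, the 5 largest per direction in the other comparisons, the 20 largest ratios in the description, and the 4 most abundant members of each list. Not all of the last are printed, and a few genes (Ccl2, Jag1, Vcam1, Cd74, Mgp, the collagen IV genes and single calls of lists) are given because of their values. Members and the 33 gene lists were chosen with earlier results of these data known. Alternatives were other pseudocounts (1 and 20 CPM), filters, marker numbers, scaling, summed or thinned UMIs, a replicate block, each library left out, and cells without markers of other lineages. Replicate numbers did not pair the libraries.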

Additional observations from a re-analysis of the deposited data

Results flagged for a closer look

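For 6 genes both cGAMP libraries of one model lay above both PBS libraries and both cGAMP libraries of the other model lay below theirs. They were picked for this pattern, and in limma the interaction was called for none of them. With 2 libraries per group such a pattern can arise by chance. The share of all genes that show it was not counted, so the number 6 is no result about these genes. As the response in implanted minus that in spontaneous tumours, the log2 difference was -3.41 for Nts (adjusted p = 0.506), -2.4 for Cygb (0.616), -1.94 for Esm1 (0.641), -0.342 for Bax (0.749), 0.513 for Mcl1 (0.618) and 0.645 for Id1 (0.496). Nts had 0.872 and 6.81 CPM in spontaneous PBS, 7.88 and 150 CPM in spontaneous cGAMP, 117 and 113 CPM in implanted PBS and 47.2 and 64.7 CPM in implanted cGAMP, with a UMI in 1 to 21 cells per library. Cygb, known from pericytes, had 3.15 and 33.6 CPM against 61.6 and 56.2 CPM in spontaneous tumours, in which the summed mural markers were 138 and 2390 CPM against 2744 and 2308 CPM, and at most 5.34 CPM in implanted tumours. The part of mural cells in it was not tested. Esm1, a gene of tip cells, had 26.8 and 28.6 CPM in spontaneous PBS, 35.3 and 29.5 CPM in spontaneous cGAMP, 39.9 and 43.4 CPM in implanted PBS and 28.7 and 0.711 CPM in implanted cGAMP. Id1, a BMP target, had 1007.5 and 1273 CPM against 865 and 989 CPM in spontaneous and 919 and 1007 CPM against 1273 and 1191 CPM in implanted tumours. Of the apoptosis regulators, Bax had 149 and 133 CPM against 168 and 164 CPM in spontaneous and 185 and 181 CPM against 163 and 174 CPM in implanted tumours, and Mcl1 had 441 and 409 CPM against 351 and 378 CPM and 398 and 482 CPM against 547 and 528 CPM.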

How the results depend on the processing

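Of 96 called results for named genes, 43 kept their call and direction under all 20 alternatives. The causes of the other changes were not tested. In spontaneous tumours the response called 529 genes with UMIs summed per library, 525 with at least 2 markers and 108 with cells thinned to 2000 UMIs, and 149 to 259 with 1 library left out, against 255. In implanted tumours it called 663 with at least 2 markers, 144 with at least 4, 97 when thinned, 163 without a filter on low values, 217 without cells with mural, immune or fibroblast markers (an alternative chosen after seeing the data) and 155 to 356 with 1 library left out, against 328. The interaction gave 1 call with at least 2 markers (Cxcl9), 3 with at least 4 (Ifit3, Igfbp7 and Iigp1), 1 without cells of other lineages (Cd74) and 0 to 4 with 1 library left out. Implanted against spontaneous after PBS gave 125 calls with at least 2 markers, 18 with at least 4, 19 when thinned, 4 without a filter and 12 to 96 with 1 library left out, against 58. After cGAMP it gave 332 with UMIs summed, 90 with at least 4 markers, 40 without cells of other lineages, 31 when thinned, 43 without a filter, 85 with a filter of 50 CPM and 49 to 208 with 1 library left out, against 162. The large-artery response minus that of other ECs, 0 in both models, gave 2 in spontaneous tumours with at least 2 markers (Adamts2 and Col6a3), 2 with a pseudocount of 20 CPM (Ccl5 and Pdia6), and in implanted tumours 14 with that pseudocount and 1 with a filter of 50 CPM (Hs3st1). Against other arterial cells the implanted response gave 2 calls with either setting (Fgl2 and Ifit1bl1).

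The shares of 10.6%, 6.46%, 14.7% and 9.60% (spontaneous PBS and cGAMP, implanted PBS and cGAMP) became 6.63%, 3.80%, 9.86% and 7.04% when thinned, 15.9%, 12.5%, 21.5% and 17.0% with at least 2 markers and 6.02%, 3.78%, 9.10% and 5.39% with at least 4, and 5.52% and 8.73% in the cGAMP groups without cells of other lineages. In implanted tumours the change of Cd74 was 0.20 with UMIs summed, 0.49 with at least 2 markers, neither of them called, and -1.16 to 0.46 with 1 library left out. Over the same omissions that of Spp1 was -0.89 to 0.15 and that of Mgp -1.74 to 0.43. The values above 0 came without implanted PBS replicate 1 for Cd74 and without implanted cGAMP replicate 2 for Spp1 and Mgp, and were not called. Replicate numbers did not pair the libraries, since deviations of same-numbered libraries correlated by -0.083 to 0.066. A replicate block gave 283 and 342 calls for the responses, 0 for the interaction and 74 and 186 between the models. Leaving out cells with epithelial markers was planned and not run, because it left a library without large-artery cells. With 40 to 157 cells per library, counting error and the 2 libraries per group limit what can be called.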
